A study of Homo sapiens with 15 samples.

Results

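The 39 genes described here encode chromatin remodelers and histone-modifying enzymes, a set that holds demethylases and acetyltransferases beside the remodelers and methyltransferases. They were taken as a list of gene symbols and matched to the symbols in the exon names of the deposited tables. All 39 were found, with 1 transcript each on the primary chromosomes, out of 49948 transcripts in all, and together they hold 1169 of 279143 exons. A further 7 transcripts of EHMT2 and SMARCB1 on alternate haplotype sequences had 0 counts in every library and were left aside. By role the genes divide into 11 subunits of the SWI/SNF complexes BAF and PBAF, 10 ATPases of the ISWI, CHD, INO80 and EP400 families, 6 H3K4 methyltransferases of the COMPASS family, 6 other histone methyltransferases, 4 lysine demethylases and 2 acetyltransferases. All 39 passed the filter on low counts in every fit.

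The exon junction complex (EJC) is the protein assembly that splicing leaves on messenger RNA a short way upstream of each exon junction. Its core of EIF4A3, MAGOH and RBM8A is joined by CASC3 or by RNPS1, and the series asks where complexes of either composition sit. The complexes stay on a transcript until translating ribosomes remove them, so cycloheximide, which stalls ribosomes, is used to hold them in place. SWI/SNF, ISWI, CHD and INO80 ATPases move or evict nucleosomes with energy from ATP. Methyltransferases, demethylases and acetyltransferases write or erase the histone marks that go with active or silent chromatin. Their messenger RNAs are long and are joined from many exons. The members had a median of 28 exons and 8095 nt, against 9 exons and 3010 nt for the 14297 transcripts tested in the crosslinked libraries. Exon numbers ran from 9 in SMARCB1 to 59 in KMT2C, and exonic length from 1690 nt in SMARCB1 to 19419 nt in KMT2D.

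All 15 libraries come from HEK293 Flp-In TRex cells, an established human embryonic kidney line with a docking site for a tagged transgene. RNase I footprints were isolated in 2 steps (RIPiT), first by a FLAG tag on one stably expressed EJC protein and then with an antibody to a second protein. The crosslinked groups (0.1% formaldehyde for 10 min) are FLAG-CASC3 with EIF4A3 after cycloheximide at 100 µg/ml for 3 h, RNPS1 with EIF4A3 after the same treatment, and the untreated counterpart of each, with 2 libraries a group. Single uncrosslinked libraries, here called native, were made from complexes of EIF4A3 with CASC3, with RNPS1 or with MAGOH, and from those of MAGOH with CASC3 or with RNPS1. The RNA-seq group has 2 libraries of rRNA-depleted, base-hydrolysed RNA from cells with no FLAG protein, no crosslinking and no antibody. Footprints therefore differ from RNA-seq in the transgene, the crosslinking and the way the fragments were made as well as in EJC binding, and these cannot be told apart. The labels do not say whether libraries A and B of a group came from separate cultures, so p-values measure the spread between these libraries, which may be technical.

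Library totals ran from 467741 to 8057700 counts, and the median member had between 174 and 3296 counts in a library. The members took 2.03% and 2.08% of all counts in untreated CASC3 footprints, 1.22% and 1.14% in untreated RNPS1 footprints, and 0.792% and 0.718% in RNA-seq. Library B of the cycloheximide-treated RNPS1 group stood apart: it was the smallest, it correlated with library A at r = 0.79 over log2 CPM, the count scaled to the library total, where the other groups reached 0.93 to 0.97, and its count-weighted GC content was 52.6%, against 48.2% in library A. Untreated CASC3 and RNPS1 libraries had a count-weighted GC content of 51.7% to 53.6%, and the treated CASC3 libraries 47.3% and 48.2%. Of 11 markers of HEK293 cells, 10 or 11 had counts in every library (419.7 to 1860 CPM in sum, with NEFM at 0 in 8 libraries). Of 12 markers of other cell types 1 to 8 had counts, summing to 7.94 to 50.2 CPM, and insulin was at 0 throughout.

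The exons below illustrate the exon-level results. They are coding internal exons with a higher share of their transcript's counts in footprints than in RNA-seq, followed by the 3′ ends of 3 very long internal exons where the share was lower. They were read 5′ to 3′ on the transcript strand from the GENCODE v29 transcripts (GRCh38, hg38), whose exon coordinates matched 1154 of the 1169 member exons. Capitals mark the bases 20 to 27 before the exon's 3′ end, the textbook place of the EJC. The deposited counts are per exon and do not resolve where in an exon a footprint lay. The first 5 are the coding internal exons with the smallest p-values for CASC3 footprints against RNA-seq.
CHD2 exon 31, chr15:92998499-92998621, plus strand: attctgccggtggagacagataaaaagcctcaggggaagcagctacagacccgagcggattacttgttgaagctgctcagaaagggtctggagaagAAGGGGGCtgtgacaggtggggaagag
CHD4 exon 28, chr12:6582848-6582936, minus strand: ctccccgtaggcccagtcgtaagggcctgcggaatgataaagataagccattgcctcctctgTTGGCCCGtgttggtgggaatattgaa
NSD1 exon 11, chr5:177248181-177248324, plus strand: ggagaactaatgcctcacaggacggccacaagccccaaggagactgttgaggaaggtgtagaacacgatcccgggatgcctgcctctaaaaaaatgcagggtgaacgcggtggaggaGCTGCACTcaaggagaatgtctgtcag
SETD2 exon 9, chr3:47097955-47098081, minus strand: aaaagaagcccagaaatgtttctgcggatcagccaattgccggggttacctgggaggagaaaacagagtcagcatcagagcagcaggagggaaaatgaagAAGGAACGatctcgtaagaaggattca
ASH1L exon 10, chr1:155378281-155378389, minus strand: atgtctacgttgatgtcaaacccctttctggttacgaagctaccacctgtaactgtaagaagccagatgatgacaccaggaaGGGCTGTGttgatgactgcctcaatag
SETD2 exon 9 and NSD1 exon 11 were also among the first 5 for RNPS1, and the other RNPS1 exons were these. They were picked among coding internal exons only, and their values are not listed in the text.
ARID2 exon 2, chr12:45730044-45730137, plus strand: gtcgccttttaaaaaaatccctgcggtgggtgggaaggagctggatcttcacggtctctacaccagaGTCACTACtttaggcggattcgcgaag
KMT2C exon 2, chr7:152358587-152358675, minus strand: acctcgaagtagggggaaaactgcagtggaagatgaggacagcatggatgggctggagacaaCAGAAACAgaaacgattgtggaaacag
ASH1L exon 14, chr1:155357585-155357749, minus strand: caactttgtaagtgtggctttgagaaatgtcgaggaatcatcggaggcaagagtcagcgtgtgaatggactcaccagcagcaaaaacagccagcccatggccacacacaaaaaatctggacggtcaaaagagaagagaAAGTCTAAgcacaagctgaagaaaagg
The last 60 bases of the longest internal exons of SETD2, ASH1L and KMT2A end at the following junctions.
SETD2 exon 3, chr3:47120182-47120241, minus strand: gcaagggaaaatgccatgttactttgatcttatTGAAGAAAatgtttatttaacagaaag
ASH1L exon 3, chr1:155477886-155477945, minus strand: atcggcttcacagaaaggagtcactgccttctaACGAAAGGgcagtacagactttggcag
KMT2A exon 27, chr11:118506587-118506646, plus strand: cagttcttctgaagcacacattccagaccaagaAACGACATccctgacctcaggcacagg
CHD4 exon 28 lies inside an exon of the antisense transcript RP5-940J5.6, and the sources used here do not say whether counting used strand, so its counts cannot be assigned to CHD4 alone.

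Relative to RNA-seq, untreated CASC3 footprints were higher for 25 of the 39 members and lower for 0, and 14 did not pass the test (edgeR quasi-likelihood test, Benjamini-Hochberg adjusted p under 0.05 over 12379 transcripts). Over all transcripts tested, 27% were called higher and 24.1% lower. The members' median log2 fold change was 1.01, against 0.06 over all transcripts. RNPS1 footprints were higher for 15 members, lower for 6 and not called for 18, where 32.1% of all transcripts were called higher and 29.6% lower, and the median was 0.27 for the members and 0.08 for all. Both comparisons use the same 2 RNA-seq libraries. Without RNA-seq library A the counts of members called were 13 for CASC3 and 9 for RNPS1, and without library B 11 and 7. Whichever library was left out, 11 calls for CASC3 (SETD1A, SMARCC2, KMT2D, EZH2, EHMT2, CHD3, EP400, KMT2B, CHD7, EHMT1 and SETD1B) and 6 for RNPS1 (SETD1A, SMARCC2, EZH2, CHD3, EHMT1 and SETD1B) were made.

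**Figure D1:**
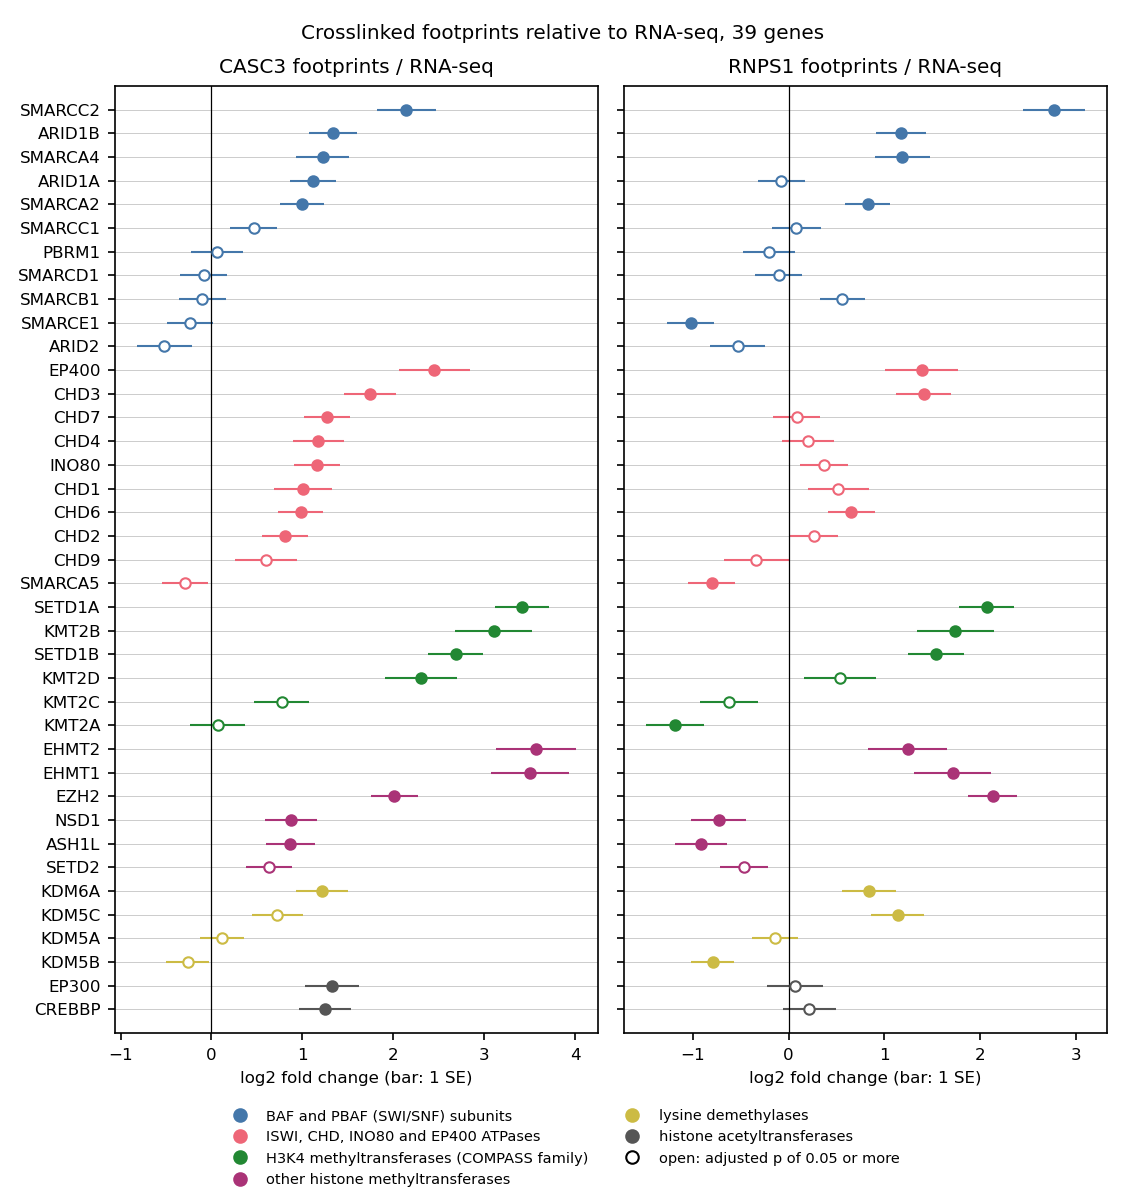
Log2 fold change of crosslinked CASC3 footprints (left) and RNPS1 footprints (right) against RNA-seq for the 39 genes, coloured by role, with bars of 1 SE and open circles where the adjusted p was 0.05 or more. EHMT2 (3.57) is farthest right for CASC3 and SMARCC2 (2.77) for RNPS1, and KMT2A (-1.19) is farthest left for RNPS1.

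Among the H3K4 methyltransferases, the catalytic subunits of COMPASS complexes, 4 of 6 were higher in CASC3 footprints and 0 lower. SETD1A had 786 and 523 CPM in untreated CASC3 footprints, against 75.9 and 53.2 CPM in RNA-seq (log2 fold change 3.41 ± 0.30 SE, edgeR adjusted p = 0.000112). KMT2B had 2486 and 3133 CPM in CASC3 footprints, against 383 and 331 CPM in RNA-seq (3.10 ± 0.43 SE). Neither gene's footprint values overlapped its RNA-seq values, but both genes were picked by a test on these libraries. SETD1B, with 541 and 282 CPM in CASC3 footprints, against 77.7 and 54.9 CPM in RNA-seq (2.68), and KMT2D (2.31) were also higher, while KMT2C (0.77) and KMT2A (0.07) did not pass the test. In RNPS1 footprints SETD1A (2.07), KMT2B (1.74) and SETD1B (1.54) were higher, KMT2D (0.54) did not pass, and KMT2A was lower. KMT2A had 284 and 202 CPM in RNPS1 footprints, against 546 and 469 CPM in RNA-seq (-1.19 ± 0.30 SE, edgeR adjusted p = 0.00611). KMT2C has partial copies elsewhere in the genome, and its counts are uncertain for that reason.

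The largest log2 fold changes in CASC3 footprints belonged to EHMT2 and EHMT1, which as a pair of partner enzymes place methyl groups on H3K9. EHMT2 had 841 and 1539 CPM in CASC3 footprints, against 126 and 98.0 CPM in RNA-seq (3.57 ± 0.44 SE, edgeR adjusted p = 0.00023). EHMT1 had 769 and 1343 CPM in CASC3 footprints, against 114 and 92.9 CPM in RNA-seq (3.50 ± 0.43 SE). Both were at their highest in library B of the CASC3 group. EZH2, the H3K27 methyltransferase of Polycomb complex PRC2, was higher in CASC3 (2.01 ± 0.26 SE) and in RNPS1 footprints (2.13 ± 0.25 SE), with 270.1 and 225 CPM in CASC3 and 301 and 315 CPM in RNPS1 footprints, against 69.0 and 61.7 CPM in RNA-seq. EHMT1 (1.71) and EHMT2 (1.24) were higher in RNPS1 footprints too, and exon 20 of EHMT2 overlaps the antisense transcript EHMT2-AS1. NSD1, an H3K36 methyltransferase, and ASH1L, a methyltransferase of the Trithorax group, were higher in CASC3 footprints (0.87 each) and lower in RNPS1 footprints (-0.73 and -0.91). NSD1 had 285 and 183 CPM in RNPS1 footprints, against 388 and 319 CPM in RNA-seq, and ASH1L had 159 and 126 CPM in RNPS1 footprints, against 255 and 238 CPM in RNA-seq. Both lower calls ended with a correction for GC content (edgeR adjusted p = 0.0743 for NSD1 and 0.0806 for ASH1L). With 1 library left out at a time, NSD1 was called in 3 and ASH1L in 4 of 6 fits for RNPS1. SETD2, which trimethylates H3K36, passed in neither (0.64 in CASC3, -0.46 in RNPS1).

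Of the remodeler ATPases outside SWI/SNF, 8 of 10 were higher in CASC3 footprints. EP400, the motor of the TIP60 complex, had 1118 and 1608 CPM in CASC3 footprints, against 279 and 269 CPM in RNA-seq (2.45 ± 0.39 SE). CHD3, a NuRD motor (1.74), CHD7 (1.27), CHD4, the other main NuRD motor (1.18), CHD1 (1.01), CHD6 (0.98) and CHD2 (0.81) were higher as well, and so was INO80, with 197 and 129.7 CPM in CASC3 footprints, against 78.6 and 74.4 CPM in RNA-seq. CHD9 (0.60) and SMARCA5 (-0.29), the ISWI motor, did not pass. In RNPS1 footprints EP400 (1.39), CHD3 (1.41) and CHD6 (0.66) were higher and SMARCA5 was lower, with 96.9 and 60.1 CPM in RNPS1 footprints, against 122 and 126 CPM in RNA-seq (-0.80). SMARCA5 lost its RNPS1 call and its sign under the GC correction (0.035).

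In the SWI/SNF group 5 of 11 members were higher in CASC3 footprints: the scaffold subunit SMARCC2 (2.14), the BAF subunits ARID1B (1.33) and ARID1A (1.12), and the alternative motors SMARCA4 (1.22) and SMARCA2 (1.00). SMARCC2 had the largest RNPS1 value of all members, with 466 and 651 CPM in RNPS1 footprints, against 89.0 and 65.1 CPM in RNA-seq (2.77 ± 0.32 SE, edgeR adjusted p = 7.57e-05). Its paralog SMARCC1 had 256 and 273 CPM in CASC3 footprints, against 205 and 208 CPM in RNA-seq, and passed in neither comparison (0.46 and 0.08). ARID1B (1.17), SMARCA4 (1.19) and SMARCA2 (0.83) were also higher in RNPS1 footprints. Exon 1 alone held 48.6% and 58.7% of the ARID1B counts in RNPS1 footprints, against 15.4% and 20.1% in RNA-seq. In CASC3 footprints it held 31.6% and 25.2%. That exon overlaps the antisense transcript RP11-230C9.2, and its part in the ARID1B values was not tested. SMARCE1 was lower in RNPS1 footprints, with 51.9 and 34.3 CPM there, against 75.9 and 82.8 CPM in RNA-seq (-1.02 ± 0.24 SE). Its exons 6 to 11 overlap those of the noncoding transcript RP5-1028K7.3, which can take part of its reads in either kind of library. Whether this bears on the lower value was not tested. The PBAF subunits PBRM1 (0.06) and ARID2 (-0.52), and SMARCD1 (-0.09) and SMARCB1 (-0.10), did not pass for CASC3.

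The H3K27 demethylase KDM6A was higher in CASC3 (1.21) and in RNPS1 footprints (0.84). Among the H3K4 demethylases KDM5C was higher in RNPS1 footprints (1.14) and not called in CASC3 footprints (0.72), KDM5B was lower in RNPS1 footprints, with 102 and 77.9 CPM there, against 142 and 143 CPM in RNA-seq (-0.79), and KDM5A passed in neither (0.12 and -0.14). The acetyltransferases EP300 (1.33) and CREBBP (1.25), paralogs that acetylate histones at enhancers, were higher in CASC3 footprints, with 0.07 and 0.22 in RNPS1 footprints, which did not pass.

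The change against RNA-seq rose with the GC content of the transcript. Across the 39 members Pearson's r between GC content and log2 fold change was 0.66 for CASC3 and 0.63 for RNPS1, against 0.53 and 0.45 over 12317 transcripts. Members share libraries, so these values are a description. GC content ran from 38.1% in CHD1 to 63.5% in KMT2B, and KMT2B, SETD1A, SETD1B, EHMT2 and EHMT1 had 57.3% or more. So did SMARCA4, KMT2D, SMARCB1, KDM5C and ARID1A, of which SMARCB1 (-0.10) and KDM5C (0.72) were not called for CASC3. With an offset for GC content, a correction chosen after seeing the data, SETD1A (2.16), KMT2B (1.70), EHMT2 (2.44) and EHMT1 (2.79) were still called for CASC3, and SMARCA4 (0.07) and ARID1A (0.40) were not. It added KMT2C, SETD2, SMARCC1, CHD9 and KDM5A as higher and SMARCB1 (-0.90) as lower, and so called 28 members higher and 1 lower. Of the 12317 transcripts 2853 were then called higher and 2521 lower for CASC3. For RNPS1 the same correction ended the higher calls of KMT2B (0.46), SETD1B (0.42), KDM5C (0.35), EHMT2 (0.14) and SMARCA4 (0.05). It also ended 4 of the 6 lower calls, those of NSD1 (-0.54), ASH1L (-0.53), KDM5B (-0.41) and SMARCA5 (0.035). SMARCC2 (2.22) and EZH2 (2.50) kept their calls, CHD1 was newly called higher (1.45) and ARID1A lower (-0.83), and 11 members were higher and 3 lower in all. Of the 12317 transcripts 3655 were then called higher and 3530 lower for RNPS1. The members' junctions per kb of exon went with the RNPS1 change at r = 0.58 (0.54 over all transcripts) and with the CASC3 change at r = 0.32 (0.50 over all).

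Untreated CASC3 footprints were set against untreated RNPS1 footprints directly. No member was called in either direction, where 0.553% of the 14297 transcripts were called higher and 0.00699% lower. At an unadjusted p under 0.05 there were 14 members (11.5% of all transcripts), and the median over the members was 0.73, against -0.09 over all transcripts, with 32 of 39 above 0 (45.3% of all transcripts). The DESeq2 Wald test called 5 members, all higher. The share of all transcripts that it called is not given here, so this count has no background to stand beside. EHMT2 had the smallest p, with 841 and 1539 CPM in CASC3 footprints, against 265 and 303 CPM in RNPS1 footprints (2.26 ± 0.52 SE, edgeR adjusted p = 0.0803). KMT2D, an enhancer H3K4 methyltransferase, had 2960 and 2971 CPM in CASC3 footprints, against 920.5 and 1087 CPM in RNPS1 footprints (1.71 ± 0.52 SE, edgeR adjusted p = 0.205). ASH1L (1.73) and NSD1 (1.54) were the others among the 4 smallest p-values. In all of these 4 genes both CASC3 libraries were above both RNPS1 libraries, but the genes were picked by p-values from these libraries. By role, 6 of 6 COMPASS members (median 1.30) and 6 of 11 SWI/SNF subunits (median 0.11) were above 0, and the difference between these groups was not tested. The absence of calls depended on the fit. Calls appeared among the members without library A or B of the treated RNPS1 group, which the comparison itself does not use, and without CASC3 library A. The shares of all transcripts called in those fits are not given here.

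The native libraries give the same pair of proteins without crosslinking, with 1 library each and so no replicate check. Native CASC3-EIF4A3 over RNPS1-EIF4A3 was above the median of all tested transcripts for 33 of 39 members (49.9% of all transcripts), with a median centred log2 ratio of 0.31. It was highest for EHMT2 (1.37), with 480 CPM in the CASC3 library, against 201 CPM in the RNPS1 library, then KMT2D (1.31) and SETD1B (1.29). ARID2 (-0.58) was lowest. In the MAGOH-CASC3 over MAGOH-RNPS1 pair 26 members were above the median of all, with a median of 0.08 and a range from -0.26 to 0.64. There EHMT2 was at 0.22 and KMT2D at 0.11, and SETD2 was highest.

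After cycloheximide, CASC3 footprints of 11 members were higher than in untreated cells, of 2 were lower, and 26 did not pass. Over all 14297 transcripts 16% were called higher and 15.8% lower, and the median was 0.71 for the members, against 0.06 for all. TMM and DESeq2 size factors placed the median of all transcripts -0.11 apart in this comparison, a shift smaller than every called value. In RNPS1 footprints no member was called, where 0% of transcripts were called higher and 0.021% lower, with 8 members at an unadjusted p under 0.05 (13.2% of all transcripts) and 1 called by the DESeq2 Wald test. The difference between the 2 responses was tested as an interaction, which called no member and 0% of transcripts higher and 0% lower, with 5 members at an unadjusted p under 0.05 (17.5% of all transcripts) and none called by DESeq2. The CASC3 response is thus not shown to differ from the RNPS1 response.

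SMARCA5 had 447 and 499 CPM in treated CASC3 footprints, against 115 and 78.1 CPM in untreated ones (2.52 ± 0.45 SE, edgeR adjusted p = 0.00265). CHD1, a remodeler that follows transcribing polymerase, had 1518 and 2071 CPM in treated CASC3 footprints, against 532 and 249 CPM in untreated ones (2.46 ± 0.52 SE), and was the highest of all members by mean CPM in that group. KDM5B had 432 and 578 CPM in treated CASC3 footprints, against 139 and 88.2 CPM in untreated ones (2.40 ± 0.47 SE). For these 3 genes both treated libraries were above both untreated ones, but the genes were picked by a test on these libraries. KDM6A had 381 and 546 CPM in treated CASC3 footprints, against 126 and 152 CPM in untreated ones (1.94). ARID2 had 293 and 312 CPM in treated CASC3 footprints, against 131 and 60.5 CPM in untreated ones (1.90). INO80 (1.81), EP300 (1.75), SETD2 (1.70), PBRM1 (1.62), SMARCE1 (1.60) and EZH2 (1.22) were higher as well. EHMT2 was lower, with 205 and 110 CPM in treated CASC3 footprints, against 841 and 1539 CPM in untreated ones (-2.79 ± 0.53 SE, edgeR adjusted p = 0.00345). EHMT1 was lower too, with 232 and 276 CPM in treated CASC3 footprints, against 769 and 1343 CPM in untreated ones (-1.89 ± 0.55 SE). No COMPASS methyltransferase was called, and their median was -0.52.

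Every one of these 13 calls depended on which libraries were in the fit. Without untreated CASC3 library B no member was called, without untreated library A 6, without treated library A 8 and without treated library B 2. The members' values followed GC content with r = -0.75 in CASC3 footprints and r = -0.75 in RNPS1 footprints (-0.56 and -0.53 over 14192 transcripts), and the treated libraries had the lower count-weighted GC content apart from RNPS1 library B. After the GC correction SMARCA5 (1.46), KDM5B (1.72), CHD1 (1.44), INO80 (1.67), EP300 (1.79), EHMT2 (-1.70) and EHMT1 (-1.27) kept their calls, and KDM6A, ARID2, SETD2, SMARCE1, PBRM1 and EZH2 (0.55 to 1.02) did not. SMARCB1 (1.77), ARID1A (1.29), CREBBP (1.27) and SMARCD1 (1.23) were called higher only after the correction. In all, 11 members were then called, 9 higher and 2 lower, where 1663 of the 14192 transcripts were called higher and 1597 lower. Whether the change in GC content of the libraries has a part in the remaining values was not tested.

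**Figure D2:**
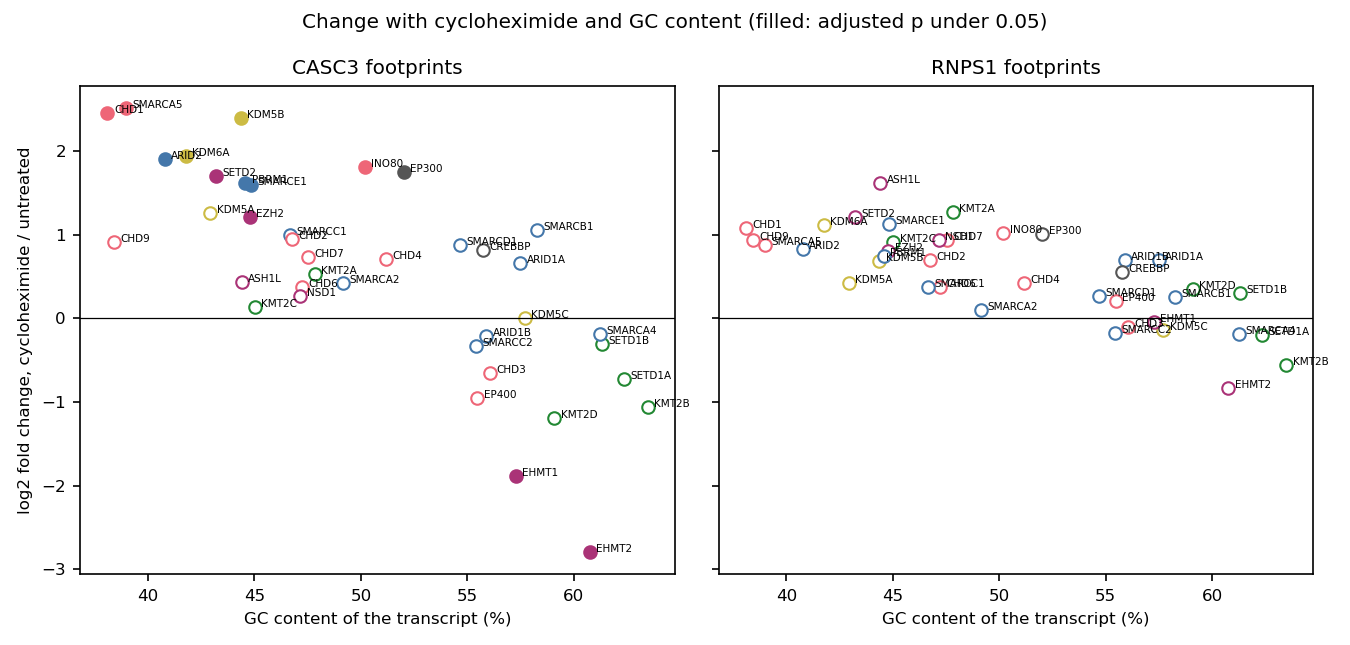
Log2 fold change of treated over untreated footprints (vertical axis) against the GC content of the transcript (horizontal axis) for the 39 genes, in CASC3 (left) and RNPS1 footprints (right), coloured by role as in the plot of footprints against RNA-seq, with filled points called. SMARCA5 and CHD1 lie at the upper left and EHMT2 at the lower right for CASC3, and no point is filled for RNPS1.

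In RNPS1 footprints the 4 smallest p-values belonged to ASH1L, KMT2A, SETD2 and KDM6A. ASH1L had 435 and 428 CPM in treated RNPS1 footprints, against 159 and 126 CPM in untreated ones (1.62 ± 0.46 SE, edgeR adjusted p = 0.225). KMT2A (1.28), SETD2 (1.21) and KDM6A (1.12) had adjusted p-values of 0.277 to 0.329 by the same test. In each of the 4 the treated and untreated libraries did not overlap, but the genes were picked by p-values from these libraries. With either treated RNPS1 library left out, calls appeared among the members, both here and for the interaction. Each such fit left 1 library in that group. The shares of all transcripts called in those fits are not given here, so they show dependence on the fit only. In the main fit the smallest interaction p-values were those of EHMT2 (-1.96 ± 0.72 SE), KDM5B (1.71 ± 0.63 SE), SMARCA5 (1.64 ± 0.61 SE) and EHMT1 (-1.84 ± 0.77 SE). Their edgeR adjusted p-values were 0.202 to 0.241.

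Under cycloheximide, CASC3 footprints were higher than RNPS1 footprints for 6 members and lower for 0, where 6.42% of all transcripts were called higher and 7.69% lower, and the medians were 0.76 for the members and -0.07 for all. The 6 were KDM5B, SMARCA5, EP300, CHD1, INO80 and SETD2. KDM5B had 432 and 578 CPM in treated CASC3 footprints, against 166 and 115 CPM in treated RNPS1 footprints (2.19 ± 0.46 SE, edgeR adjusted p = 0.0144). SMARCA5 had 447 and 499 CPM in treated CASC3 footprints, against 145 and 137 CPM in treated RNPS1 footprints (4.27-fold, edgeR adjusted p = 0.0144). EP300 had 1201 and 1846 CPM in treated CASC3 footprints, against 484 and 543 CPM in treated RNPS1 footprints (1.94 ± 0.49 SE). CHD1 (1.83), INO80 (1.53) and SETD2 (1.53) followed, and INO80 had 399 and 569 CPM in treated CASC3 footprints, against 241 and 188 CPM in treated RNPS1 footprints. In all 6 both CASC3 libraries exceeded both RNPS1 libraries, which adds no support, as the 6 were picked by a test on these libraries. The same held for CHD4, KDM6A, CREBBP, ARID1A, KDM5A, CHD7, SMARCC1, PBRM1, ARID2, NSD1, CHD2 and CHD9, which were not called in the main fit. In SMARCC2, ARID1B, KDM5C and CHD3, also not called, both CASC3 libraries were below both RNPS1 libraries. The share of all transcripts without overlap is not given here. A fit of the treated libraries alone called 0 members and 0 transcripts of 14290. With 1 library left out at a time, the calls ended without either treated CASC3 library and were more without either treated RNPS1 library. They were fewer without any 1 of the untreated libraries. The shares of all transcripts called in those fits are not given here, so they show dependence on the fit only. With the GC correction CHD1 (1.05) and SETD2 (1.08) were no longer called, and KMT2B (1.61), SETD1A (1.59), CREBBP (1.57), ARID1A (1.52) and CHD4 (1.22) were newly called, which made 9 in all. Of the 14192 transcripts with a GC value 1552 were then called higher and 1616 lower.

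**Figure D3:**
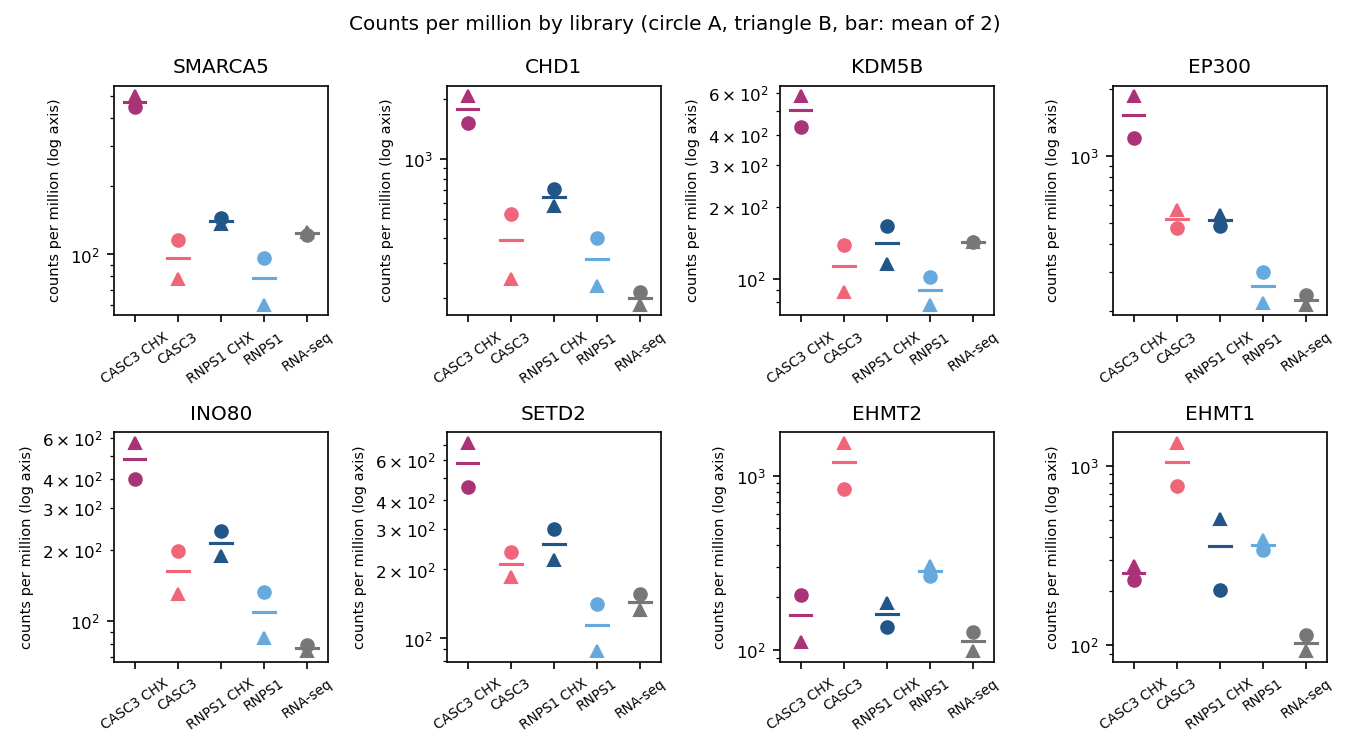
CPM (log axis) of 8 genes in each crosslinked and RNA-seq library, with circles for library A, triangles for library B and a bar at the mean of both, and CHX for cycloheximide. SMARCA5 is at 447 and 499 in treated CASC3 footprints with 145 as its highest value in the other groups, and EHMT2 is highest in untreated CASC3 footprints at 841 and 1539.

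Within transcripts, footprints and RNA-seq divided the members' counts differently between exons. Last exons, which lie after the final junction and receive no EJC of their own, held 10.5% and 6.38% of the members' counts in untreated CASC3 footprints, 5.48% and 4.68% in untreated RNPS1 footprints, and 21.5% and 21.4% in RNA-seq. They make up 28.1% of the members' exonic length. Over all multi-exon transcripts last exons held 15.9% and 12.6% in CASC3, 13.1% and 12.1% in RNPS1, and 44.4% and 45.2% in RNA-seq. Internal exons of the members held 84.5% and 88.3% in CASC3, 87.5% and 87.5% in RNPS1, and 75.4% and 75.0% in RNA-seq. No footprint library overlapped RNA-seq in either share. The exact (Clopper-Pearson) 95% interval of the last-exon share was 10.1% to 10.9% in CASC3 library A and 20.7% to 22.4% in RNA-seq library A, and such intervals cover counting error only.

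The test of exon use, which sets an exon's change against the rest of its transcript (diffSpliceDGE in edgeR, adjusted p under 0.05 over 34511 exons), covered 630 exons of 38 members against RNA-seq. Of 36 last exons 13 were lower and 0 higher in CASC3 footprints (20.8% and 0.117% of all last exons). In RNPS1 footprints 27 were lower and 0 higher (47.4% and 0.137%). Of 28 first exons 9 were higher and 0 lower in CASC3 (28.5% and 0.581% of all first exons) and 13 and 0 in RNPS1 (34.7% and 0.766%). Of 566 internal exons 65 were higher and 17 lower in CASC3 (9.32% and 1.24% of all internal exons) and 51 and 10 in RNPS1 (11.7% and 0.856%). Of the called exons 27 were higher and 18 lower in both comparisons, which share the RNA-seq libraries. The calls depended on single libraries. In all 104 member exons were called for CASC3 and 101 for RNPS1, but without RNA-seq library A 8 and 20 were, without RNA-seq library B 8 and 19, without CASC3 library B 32, and without RNPS1 library B 39.

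CHD2 exon 31, printed above, had 20 and 46 counts in CASC3 footprints, against 1 and 0 in RNA-seq (exon use 5.87 ± 0.92 SE on the log2 scale, edgeR adjusted p = 3.77e-05). CHD4 exon 28 had 36 and 79 counts in CASC3 footprints, against 2 and 3 in RNA-seq (3.78 ± 0.68 SE). Both were called whichever library was left out. SETD2 exon 9 had 19 and 21 counts in CASC3 and 21 and 31 in RNPS1 footprints, against 1 and 0 in RNA-seq (5.42 in CASC3 and 4.69 in RNPS1). NSD1 exon 11 (3.57), ASH1L exon 10 (3.92), KMT2D exon 46 (3.14), KMT2A exon 28 (3.93) and KMT2C exon 57 (4.08) were the others with the smallest p-values in CASC3 footprints. With 0 to 6 RNA-seq counts behind each of these exons, the sizes are loosely fixed. The 65 internal exons higher in CASC3 footprints were of 55 to 302 nt, with a median of 131 nt.

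In RNPS1 footprints the 8 smallest p-values were shared between last and first exons. The last exon of ARID1B, exon 19, had 49 and 59 counts in RNPS1 footprints, against 76 and 52 in RNA-seq, where the whole transcript had 362 and 328 CPM in RNPS1 footprints, against 153 and 130.1 CPM in RNA-seq (exon use -2.98 ± 0.49 SE). Of the ARID1B counts exon 1 alone held 48.6% and 58.7% in RNPS1 footprints, against 15.4% and 20.1% in RNA-seq. The last exons of KDM5A (-2.61), SMARCA2 (-3.25), EP400 (-2.74) and SMARCC1 (-2.80) were lower too, and the first exons of KMT2C (3.34), ARID2 (3.84) and KDM6A (4.47) were higher. All 8 were called whichever library was left out. EP400 exon 53 overlaps the antisense transcript RP13-820C6.2. KDM6A exon 1 had 71 and 137 counts in RNPS1 footprints, against 1 and 1 in RNA-seq. In RNA-seq KMT2C exon 1 had 8 and 5 counts and ARID2 exon 1 had 1 and 6. The sizes for these 3 first exons are therefore loosely fixed. Their GC content was 65.8% to 70.8%, and its part in these values was not tested.

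Between untreated CASC3 and RNPS1 footprints 5 of 786 member exons were higher and 0 lower, where 0.0884% and 0.00884% of 45249 exons were. They were exons 16 and 14 of ARID1B, exon 31 of CHD2, exon 34 of KMT2A and exon 28 of KDM6A. ARID1B exon 16 had 17 and 43 counts in CASC3 footprints, against 4 and 7 in RNPS1 footprints (4.49 ± 0.62 SE, edgeR adjusted p = 6.46e-05). CHD2 exon 31 had 20 and 46 counts in CASC3 footprints, against 12 and 21 in RNPS1 footprints (2.57 ± 0.57 SE). No member exon was called without CASC3 library B or either RNPS1 library, and 17 were without CASC3 library A. A fit with the library letter as a replicate block called 21, and among exons averaging at least 10 counts 1 was called.

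Several of the longest internal exons took a smaller share of footprint counts than of RNA-seq counts. SETD2 exon 3 (4367 nt, 53.6% of the transcript) held 8.85% and 9.52% of the transcript's counts in untreated CASC3 footprints and 17.96% and 14.8% in untreated RNPS1 footprints, against 58.1% and 65.0% in RNA-seq. Its exon use was lower in CASC3 (-2.40 ± 0.54 SE, edgeR adjusted p = 0.00208) and in RNPS1 (-1.65 ± 0.49 SE). ASH1L exon 3 (4564 nt) held 13.1% and 10.1% in CASC3 and 21.9% and 19.5% in RNPS1, against 51.7% and 57.8% in RNA-seq, and was called lower in CASC3 (-2.03). KMT2A exon 27 (4249 nt) held 13.1% and 9.41% in CASC3 and 10.9% and 9.07% in RNPS1, against 34.3% and 39.6% in RNA-seq, and was called lower in both (-1.55 and -1.64). In these 3 exons every footprint library was below both RNA-seq libraries. Their GC content was 39.9% in SETD2, 42.0% in ASH1L and 46.9% in KMT2A, and its part in these values was not tested.

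Among the other long exons, CHD7 exon 2 held 4.53% and 5.28% in CASC3 and 14.2% and 10.9% in RNPS1, against 18.5% and 24.3% in RNA-seq, and was called lower in CASC3 (-2.01). KMT2B exon 3 (-1.57, called in CASC3) and KMT2D exon 39 (-1.39 in CASC3 and -1.58 in RNPS1, both called) were lower as well. ARID2 exon 15 held 33.1% and 37.5% in CASC3, 16.1% and 10.3% in RNPS1 and 46.8% and 46.9% in RNA-seq, and was called in neither comparison. Of 45 internal exons of 500 nt or more that were tested, 10 were lower and 0 higher in CASC3 footprints, where 5.43% and 2.94% of all such exons were. In RNPS1 footprints 7 were lower and 2 higher (4.73% and 8.69%). By share, SETD1B exon 13 (1260 nt) stood above RNA-seq (11.2% and 10.8%), with 19.2% and 12.1% in CASC3 and 15.5% and 17.4% in RNPS1. EP400 exon 2 (1370 nt) did so in RNPS1 only, with 22.3% and 16.1%, against 12.8% and 12.9% in RNA-seq. Over all 39 members the longest internal exon held 9.26% and 6.19% of counts in untreated CASC3, 10.4% and 8.89% in untreated RNPS1, and 16.8% and 17.3% in RNA-seq, and over all transcripts with internal exons 12.8% and 11.3%, 13.6% and 12.9%, and 12.9% and 12.8%. In treated footprints the members' shares were 8.81% and 7.19% in CASC3 and 14.9% and 15.1% in RNPS1. The native libraries held 11.9% to 14.6%.

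**Figure D4:**
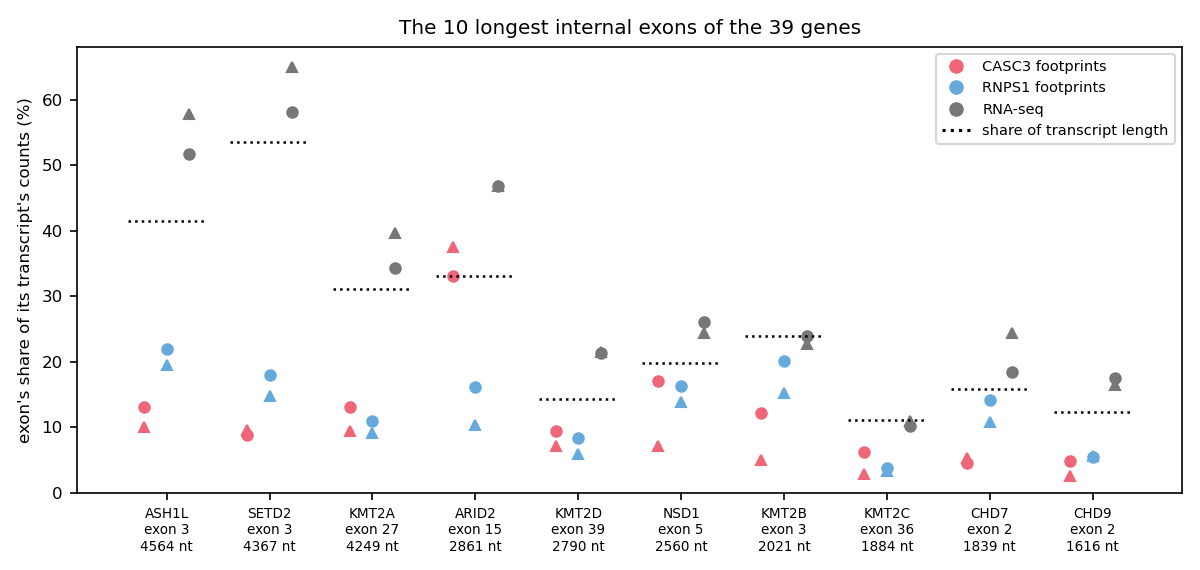
Share of each transcript's counts (percent) in the 10 longest internal exons of the 39 genes, in untreated CASC3 footprints, untreated RNPS1 footprints and RNA-seq, with circles for library A, triangles for library B and a dotted line at the exon's share of the transcript's length. SETD2 exon 3 stands at 58.1% and 65.0% in RNA-seq, above all 4 footprint libraries.

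First exons held 0.849% and 0.783% of the members' counts in treated CASC3 footprints, against 5.01% and 5.36% in untreated ones, and 3.08% and 3.58% in RNA-seq. The share was lower in both treated libraries than in both untreated ones for 35 of the 39 members and higher in both for 0, where 62.8% and 3.2% of all multi-exon transcripts tested were. All multi-exon transcripts had 2.25% and 2.11% in treated CASC3 footprints, against 11.7% and 14.8% in untreated ones. In RNPS1 footprints the treated libraries disagreed, with 2.46% in library A and 10.4% in library B, against 7.03% and 7.87% in untreated ones. There 12 members were lower in both treated libraries and 0 higher (26.9% and 3.72% of all). KDM6A exon 1 held 0.326% and 0.164% of the transcript's counts in treated CASC3 footprints, against 13.4% and 17.4% in untreated ones. ARID1B exon 1, which overlaps the antisense transcript RP11-230C9.2, held 3.48% and 3.66% in treated CASC3 footprints, against 31.6% and 25.2% in untreated ones. First exons of the members had a median GC content of 70.7%, against 48.8% for internal and 46.5% for last exons, and the treated libraries other than RNPS1 library B were poorer in GC. The part of GC content in this difference was not tested.

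**Figure D5:**
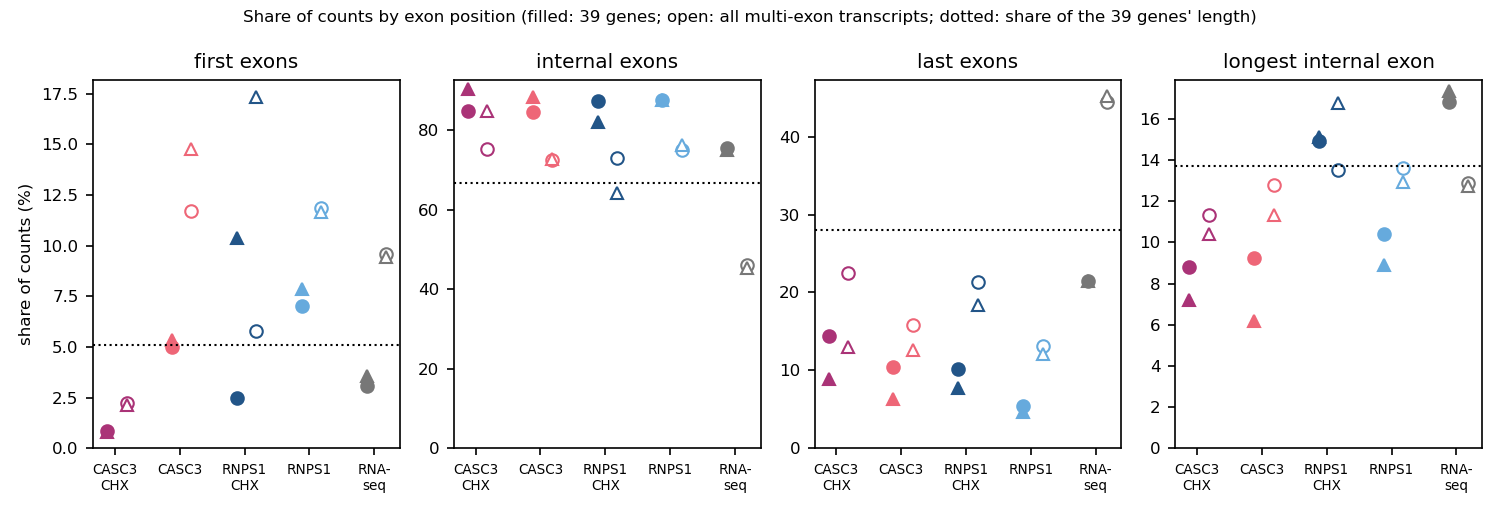
Share of counts (percent) in first, internal and last exons and in the longest internal exon, by library, for the 39 genes (filled) and all multi-exon transcripts (open), with circles for library A, triangles for library B, CHX for cycloheximide, and a dotted line at the share of the 39 genes' length. First exons of the 39 genes stand at 0.849% and 0.783% in treated CASC3 footprints, below every other group.

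Levels between genes are compared per length. In RNA-seq the mean CPM per kb ran from 8.10 for SETD1B to 48.0 for SMARCA4, with a median of 20.2 over the members, and CHD4 (44.4) and KMT2B (42.2) were next to SMARCA4. Without division by length KMT2D was the highest member in RNA-seq (645 CPM), and in untreated CASC3 footprints (2965 CPM). SMARCB1 was the lowest member in both (51.1 and 45.3 CPM). The pair of members whose log2 CPM values were most alike over the 15 libraries was SMARCA5 and KDM5B (r = 0.97), followed by CREBBP and ARID1A (0.96) and by SETD1A and KMT2B (0.96).

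Other chromatin genes were listed by complex or activity, and their counts stand beside the 27% of all transcripts called higher and the 24.1% called lower in CASC3 footprints against RNA-seq. There 10 of 22 further SWI/SNF and ISWI subunits were higher and 0 lower (median 0.70), among them DPF1 (3.67) and SMARCD3 (3.04). Of 23 INO80, SRCAP and TIP60 partners 11 were higher and 3 lower (median 0.95), with NFRKB at 2.78. The COMPASS core gave 6 higher and 1 lower of 12 (0.68), NuRD subunits 5 and 1 of 12 (0.32), Polycomb partners 6 and 4 of 25 (0.20), further methyltransferases 6 and 1 of 17 (0.49), further demethylases 4 and 1 of 15 (0.56), and acetyltransferases with deacetylases 12 and 2 of 24 (0.77). After cycloheximide in CASC3 footprints, where 16% of all transcripts were higher and 15.8% lower, 8 of 24 INO80, SRCAP and TIP60 partners were higher and 1 lower. Further demethylases gave 7 higher and 1 lower of 16, acetyltransferases with deacetylases 7 and 5 of 24, Polycomb partners 8 and 5 of 25, and further SWI/SNF and ISWI subunits 6 and 3 of 22. NuRD subunits gave 4 and 2 of 12, the COMPASS core 4 and 1 of 12, and further methyltransferases 3 and 0 of 17. The deacetylase SIRT1 (3.32) and the TIP60 subunits EPC1 (2.80) and EPC2 (2.88) were higher, and HDAC11 (-3.50), MBD3 (-2.76) and MTA1 (-2.68) were lower.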

How the data were processed

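RNase I footprints and RNA-seq reads were counted per exon and per transcript, and the authors deposited the values as raw counts in 1 table per feature type. Per the submitters' processing notes the tools were cutadapt 1.16, TopHat2 2.1.1 and bedtools on hg38. The sources used here do not give the annotation, the overlap rule or the use of strand. The members and lists were chosen with earlier results of these data known.

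Transcript counts were tested with edgeR 4.0.16 (R 4.3.3) by its quasi-likelihood test with TMM scaling, filterByExpr at a minimum count of 10 and Benjamini-Hochberg adjustment over all transcripts, with 0.05 as the threshold. The 8 crosslinked libraries entered 1 fit, and the untreated crosslinked and RNA-seq libraries another, so each fit has 1 estimate of spread. Exon use was tested with diffSpliceDGE. Native ratios used a prior count of 2 and were centred on the median transcript. Scripts were tested on simulated counts. Per-library values are given for members called (up to 6 with the largest log2 fold change in each direction), or for the 4 with the smallest p where fewer than 4 were called, and for the 8 exons with the smallest p. Alternatives were DESeq2 1.42.0, no filter, other sample sets, a replicate block, leaving out each library, and a GC offset (lowess span 0.3).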

Additional observations from a re-analysis of the deposited data

Results flagged for a closer look

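KMT2C, an H3K4 methyltransferase of enhancers, was singled out because its CPM, scaled to the library total, was lower in both treated CASC3 libraries and higher in both treated RNPS1 libraries than in the untreated ones. It had 856 and 873 CPM in treated CASC3 footprints, against 877 and 918 CPM in untreated ones, and 974 and 511 CPM in treated RNPS1 footprints, against 463 and 342 CPM in untreated ones. The difference between the responses was -0.77 ± 0.67 SE on the log2 scale and did not pass the edgeR quasi-likelihood test (adjusted p = 0.55). The fitted changes, which use TMM scaling, were both above 0, at 0.14 in CASC3 and 0.91 in RNPS1 footprints, so the opposite directions hold for CPM alone.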

How the results depend on the processing

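With each alternative changed alone, 86 of the summary values stayed within their margin and 46 moved. Except where stated, counts of members from alternative fits have no share of all transcripts beside them. They show dependence on the fit and do not set the members against other transcripts. Untreated CASC3 against RNPS1 called 0 members, against 1 with no filter, 1 with the replicate block, 4 with the compared groups only, 5 with the DESeq2 Wald test and 5 with the GC correction, which was chosen after seeing the data. Over all transcripts the GC correction called 312 higher and 22 lower there. Under cycloheximide the compared groups alone called 0 members in place of 6. Cycloheximide in RNPS1 called 1 by the DESeq2 Wald test. Exon use between CASC3 and RNPS1 called 1 exon among those averaging at least 10 counts and 21 with the replicate block, in place of 5. SMARCA5 in RNPS1 footprints against RNA-seq turned to 0.035 with the GC correction. Medians of the members' own shares in place of pooled shares were 22.9% for last exons in RNA-seq, 7.52% and 10.5% for the longest internal exon in RNPS1 and RNA-seq, and 0.409%, 4.78% and 6.31% for first exons in treated CASC3, untreated CASC3 and untreated RNPS1. The cause was not tested.

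Leaving out 1 library gave 0 to 6 members for untreated CASC3 against RNPS1, 0 to 14 under cycloheximide, 0 to 19 for cycloheximide in CASC3, 0 to 4 in RNPS1, 0 to 7 for the interaction, 11 to 26 for CASC3 against RNA-seq and 7 to 23 for RNPS1 against RNA-seq. Exon calls ran from 8 to 133, from 19 to 128 and from 0 to 17 for CASC3 and RNPS1 against RNA-seq and for CASC3 against RNPS1. Library letters are shared between groups, but nothing in the labels says that they pair libraries, and deviations of same-lettered libraries correlated at 0.0153 to 0.321 between crosslinked groups, above 0.1 in 5 of 6 pairs of groups, and at -0.0147 to 0.0153 with RNA-seq. The replicate block gave 7 members under cycloheximide, 16 for cycloheximide in CASC3, 28 for CASC3 and 22 for RNPS1 against RNA-seq. The smallest library limits the depth, with a median of 174 counts per member.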
